A study of Mus musculus with 11 samples.

Results

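Lysosomes are acid organelles in which proteins, glycans and lipids are taken apart. Proton pumps in the limiting membrane keep the lumen acid, and the cathepsins are proteases that work there. TFEB and its relatives are transcription factors known to drive many of these genes by binding a CACGTG-containing element. Macrophages carry many lysosomes, and CD68 is used to mark them, whereas resting T cells carry fewer.

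The 39 lysosome and cathepsin genes described here were chosen by symbol. All 39 have values among the 14604 listed genes, and all 39 passed the filter on low values, as did 13897 genes in all. They comprise 8 cysteine proteases, 3 aspartic or serine proteases, 9 hydrolases of glycans, 7 genes of lipid handling, 8 membrane proteins, 2 proton pump subunits, progranulin (Grn) and the transcription factor Tfeb. The values are log2(n + 1), where n is an expression value summed by gene symbol.

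Tregs were sorted as live CD4+GITR+CD25+ cells from tumors and spleens of mice bearing MC38, a mouse colon adenocarcinoma line, and their RNA was sequenced after depletion of ribosomal RNA. The spleens came from the same tumor-bearing mice, so there was no tumor-free group. Both genotypes carried floxed CD177 alleles (CD177flox/flox, here WT), and the KO also carried FOXP3-CreYFP (CD177flox/flox/FOXP3-CreYFP), in which Foxp3 drives Cre in Tregs. There were 6 libraries of spleen Tregs (3 WT, 3 KO) and 5 of tumor-infiltrating (TI) Tregs (3 WT, 2 KO). Cd177 itself has no values here, and the genotypes were therefore taken from the labels alone. The labels give no ages, do not say whether libraries came from single mice or pools, and do not tie replicate numbers to mice, so the p-values measure the spread between these libraries. Tnfrsf18, the gene for the sorted protein GITR, and Cd4, Foxp3 and Il2ra are among the 6 Treg markers, which summed to between 9.86 and 10.08 in spleen and between 9.64 and 10.35 in tumor on the log2 scale. Foxp3 was 6.35 ± 0.30 (SD, n = 6) in spleen against 5.50 ± 0.55 (SD, n = 5) in tumor, and Cd3e was 8.17 ± 0.06 and 7.55 ± 0.30. Markers of the labelled cell type were thus present in both tissues, and those of other cell types are given with the tissue comparison.

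Summed n per library was between 712832 and 844331 in spleen and between 1103159 and 1304548 in tumor. The methods state an approximate number of reads per library, which these totals do not reach, and how n relates to reads is not stated, so no counting interval can be given. The scaling bears on the size and sign of each difference. The median over all genes tested was 0.08 higher in tumor libraries as deposited, but it was -0.14 after median centring, -0.16 after quantile normalization and -0.44 with equal library totals. For genes with low values a difference in log2(n + 1) is smaller than the change in n.

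Promoter sequence for 35 of the 39 genes was matched in RefSeq (GRCm38.p6), in windows from 250 bases before to 50 bases after a transcription start. Asah1, Ctsb, Ctsh and Npc1 were not matched. CACGTG, which reads the same on both strands, stood in a window of 12 of the 35 genes (34.3%), against 11.4% of the 10362 tested genes with a window and 7.15% of all 32851 windows. The longer GTCACGTG, which contains it and was searched on both strands, stood in 9 of 35 (25.7%), against 4.65% of tested genes and 2.25% of all windows. TCACGTGA, which also contains it, stood in 5 of 35 (14.3%), against 2.11% of tested genes and 0.974% of all windows. Stretches of 30 bases around the motif are shown for 3 proteases that rose strongly, for Lamp1, and for Mcoln1 and Sgsh, which did not pass the test between tissues. The capitals mark CACGTG and the gene's strand is printed 5′ to 3′.
Ctsd: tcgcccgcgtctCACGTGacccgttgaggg
Lgmn: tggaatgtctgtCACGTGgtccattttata
Ctsl: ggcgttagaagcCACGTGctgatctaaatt
Lamp1: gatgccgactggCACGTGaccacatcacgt
Mcoln1: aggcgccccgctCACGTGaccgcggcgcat
Sgsh: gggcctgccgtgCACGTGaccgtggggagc
In order, they lie at chr7:142387908-142387937 (minus strand), chr12:102439124-102439153 (minus), chr13:64370739-64370768 (minus), chr8:13159121-13159150 (plus), chr8:3500462-3500491 (plus) and chr11:119355522-119355551 (minus). The first base of the motif is at -98, -49, -236, -28, -45 and -29 from the start of the window's transcript. The motif is present in genes with large and with small differences. The median difference between tumor and spleen was 2.45 over the 12 genes with CACGTG, 2.39 over the 23 without it and 3.33 over the 4 without a window. A match describes these letters and does not show that a factor binds there.

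The tissue comparison asked which genes differ between TI-Tregs and splenic Tregs. Nearly all of the lysosome and cathepsin genes were higher in the tumor libraries. Of the 39, 36 rose, 1 (Tfeb) fell and 2 (Mcoln1 and Sgsh) did not pass the test (limma with Benjamini-Hochberg adjustment over 13897 genes, 5 tumor against 6 spleen libraries). The 36 are 92.3% of the list, against 43.1% of all genes tested that were called higher, while 78.9% of all genes were called in either direction and 35.9% lower. The median difference over the 39 was 2.47, against 0.08 over all genes. Of the 39, 32 rose by at least 1 on the log2 scale, against 20.4% of all genes, and 15 rose by at least 3, against 3.66%. In 36 genes the lowest tumor library lay above the highest spleen library, a pattern that 35.2% of all genes showed (63.5% with the reverse order included), and the tissues overlapped in the other 3. Together the 39 genes made up between 0.235% and 0.314% of summed n in the spleen libraries and between 1.02% and 1.49% in the tumor libraries.

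**Figure D1:**
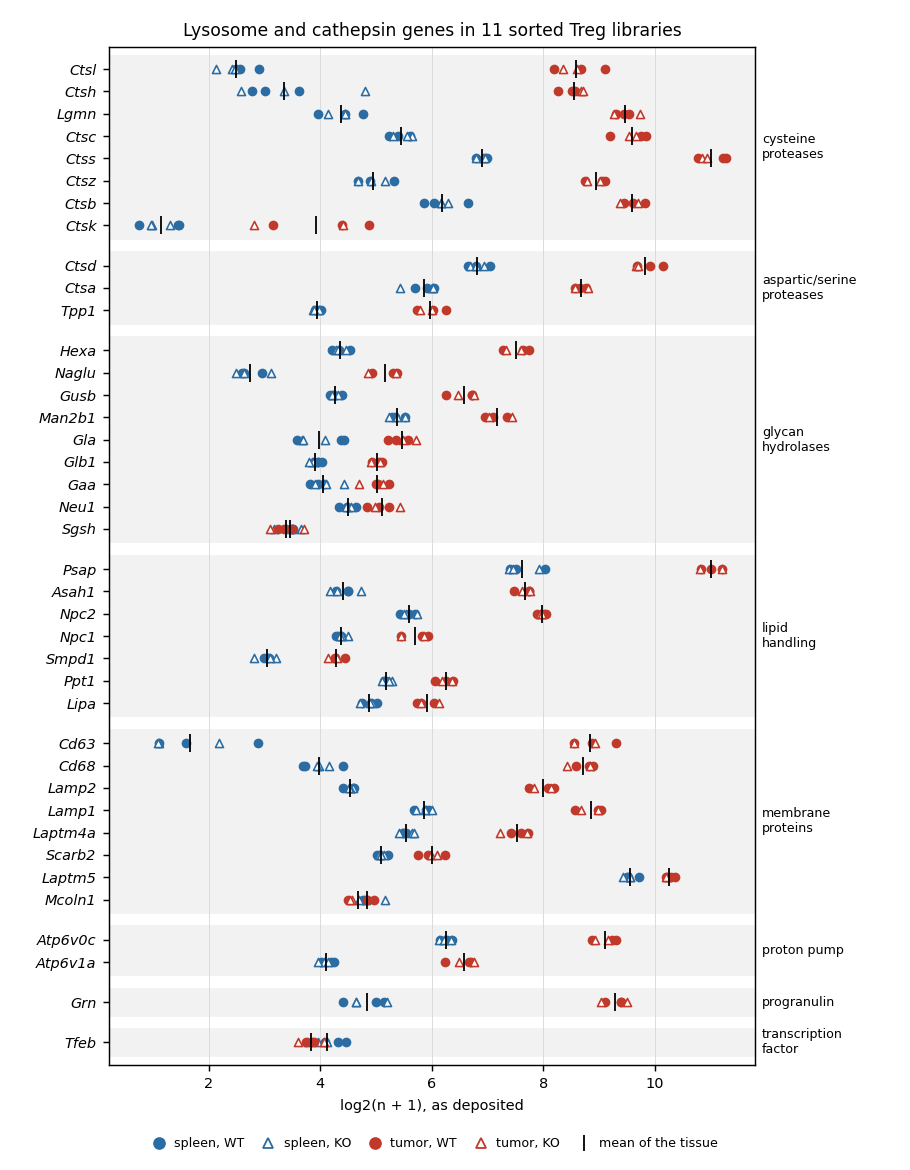
Deposited log2(n + 1) of the 39 genes (rows, grouped by role) in 11 libraries, with spleen in blue, tumor in red, WT as filled circles, KO as open triangles and a black bar at each tissue's mean. The tissues separate in 36 rows, while the points of Sgsh, Mcoln1 and Tfeb overlap.

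The 8 cysteine proteases all rose, with a median difference of 4.13 and a range of 2.78 to 6.10, the largest median of the 6 roles with more than 1 gene. Ctsl, the gene of cathepsin L, a broad endopeptidase, lies at chr13:64359337-64370890 on GRCm38 (mm10). Its lowest, median and highest spleen values were 2.13, 2.48 and 2.89, and its tumor values were 8.20, 9.11, 8.69 in WT and 8.35, 8.61 in KO. The tissues were far apart, with a gap of 5.31 between the highest spleen and the lowest tumor library and a difference of 6.10 (SE 0.16, adjusted p = 1.17e-11). It ranked 50 among all 13897 differences, from the largest rise down. A limit is that 28.2% of its 31-base words also occur in transcripts of other genes, chiefly Gm47123 on the opposite strand.

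Ctsh, the gene of cathepsin H, an aminopeptidase, was less even in spleen. Its spleen values were 3.61, 2.78 and 3.01 in WT and 2.57, 4.81 and 3.36 in KO, and its tumor values were 8.27, 8.57, 8.52, 8.68 and 8.72. Spleen KO replicate 2 stood highest, yet each tumor library was above it, and the difference was 5.20 (SE 0.32, adjusted p = 8.98e-09). Lgmn encodes legumain, which cleaves after asparagine and helps mature cathepsins. It ran from 3.96 to 4.76 in spleen (median 4.44) and was 9.31, 9.54, 9.45, 9.27 and 9.75 in tumor, a difference of 5.10 (SE 0.13, adjusted p = 1.11e-11).

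Ctss and Ctsk are neighbours on chromosome 3, at chr3:95526786-95556403 and chr3:95499256-95509362, with 17423 bases between them. Ctss encodes cathepsin S, which trims the invariant chain in antigen-presenting cells, and Ctsk encodes cathepsin K, the collagenase of osteoclasts. Ctss lay between 6.79 and 6.98 in spleen (median 6.94) and at 10.77, 11.22, 11.28, 10.84 and 10.94 in tumor, a difference of 4.11 (SE 0.10, adjusted p = 5.62e-12). Per kilobase of coding transcript, its n was 87.6 ± 5.26 (SD, n = 6) in spleen against 1538 ± 247 (SD, n = 5) in tumor. The latter was the highest of the 39 genes in tumor, and the rank of Ctss moved from 428 to 57 among 13727 genes with a length. Levels per kilobase assume that n was not already divided by length, which is not stated. As deposited, Psap (11.02) and Ctss (11.01) had nearly the same tumor mean. Ctsk lay near the floor in spleen (0.74 to 1.46, median 1.14) and varied more between tumor libraries than any other member, at 3.15, 4.87, 4.39, 4.40 and 2.81. Tumor WT replicate 1 and tumor KO replicate 2 were the lowest, but still above each spleen library, and the difference was 2.78 (SE 0.33, adjusted p = 5.27e-06).

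Ctsc, the gene of dipeptidyl peptidase I that activates granule serine proteases, rose by 4.14 (SE 0.12), from 5.46 ± 0.18 (SD, n = 6) to 9.60 ± 0.25 (SD, n = 5). Ctsz, which encodes the carboxypeptidase cathepsin Z, rose by 4.0 (SE 0.12), and Ctsb, which encodes cathepsin B, rose by 3.40 (SE 0.13). The tissues did not overlap in any of these 3 genes. Ctsb shares 12.4% of its 31-base words with Fdft1 on the opposite strand, whose own difference was 0.73.

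The 3 aspartic or serine proteases also rose, by a median of 2.82. Ctsd encodes cathepsin D, the main aspartic protease of the lysosome, and lies at chr7:142375911-142388038 on the minus strand. It lay between 6.66 and 7.05 in spleen (median 6.79) and at 9.68, 10.16, 9.92, 9.66 and 9.71 in tumor, a difference of 3.0 (SE 0.10, adjusted p = 6.46e-11). The tissues were separated by 2.61 at their nearest libraries. Of its 31-base words, 33.2% also occur in Gm49369, an overlapping annotation on the same strand, which has no values here. Whether reads were shared between the pair was not tested.

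Ctsa encodes the serine carboxypeptidase that protects neuraminidase and beta-galactosidase in a complex. It rose by 2.82 (SE 0.11), from 5.85 ± 0.24 (SD, n = 6) to 8.68 ± 0.11 (SD, n = 5). Its exons overlap those of Pltp on the opposite strand, with which it shares 7.67% of its 31-base words, and Pltp was itself 5.39 higher in tumor. Tpp1, the gene of a tripeptidyl peptidase, rose by 2.03 (SE 0.09).

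The glycan hydrolases moved less evenly. Of the 9, 8 rose and Sgsh did not pass the test, and their median difference was 1.49. Hexa encodes the alpha subunit of beta-hexosaminidase, which removes terminal hexosamines from gangliosides. It lay between 4.21 and 4.53 in spleen (median 4.33) and at 7.27, 7.74, 7.64, 7.33 and 7.60 in tumor. This was the largest difference of the 9, at 3.16 (SE 0.09, adjusted p = 2.71e-11), and 11.4% of its 31-base words occur in Tmem202 on the opposite strand.

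Naglu and Sgsh encode enzymes that take part in the breakdown of heparan sulfate, an N-acetylglucosaminidase and a sulfamidase. Naglu rose by 2.43 (SE 0.14), from a spleen range of 2.48 to 3.11 (median 2.63) to 4.92, 5.30, 5.38, 4.85 and 5.36 in tumor. Sgsh ran from 3.18 to 3.65 in spleen (median 3.49) and was 3.24, 3.49, 3.35, 3.09 and 3.72 in tumor. The Sgsh ranges overlap, and its difference of -0.07 has a 95% interval from -0.33 to 0.19 (adjusted p = 0.592). Sgsh shares 19.7% of its 31-base words with Card14 on the opposite strand, which was near the floor in both tissues. Naglu and Sgsh both hold CACGTG in their windows, and its part in their differences was not tested.

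Among the other glycan hydrolases, Gusb (beta-glucuronidase) rose by 2.32 (SE 0.09), Man2b1 (an alpha-mannosidase) by 1.79 (SE 0.09) and Glb1 (beta-galactosidase) by 1.10 (SE 0.07). Gla, the alpha-galactosidase on the X chromosome, was spread more widely in spleen, from 3.57 to 4.43 (median 3.89), and read 5.21, 5.36, 5.57, 5.72 and 5.48 in tumor. Its tissues still did not overlap, and its difference was 1.49 (SE 0.17, adjusted p = 2.53e-06). The smallest called rises of the group were those of Gaa (acid alpha-glucosidase), at 0.98 (SE 0.12), and Neu1 (neuraminidase), at 0.61 (SE 0.10, adjusted p = 8.29e-05). The Neu1 call depended on the scaling, as its difference was 0.0088 (adjusted p = 0.954) with equal library totals. Gaa and Sgsh lie 57970 bases apart on chromosome 11, and the rise of Gaa was not shared by Sgsh.

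All 7 lipid genes rose, with a median of 1.34 and a range of 1.04 to 3.40. Psap encodes prosaposin, the precursor of the saposins that present sphingolipids to their hydrolases, and lies at chr10:60277627-60302597. It lay between 7.39 and 8.02 in spleen (median 7.48) and at 10.83, 11.02, 11.22, 10.82 and 11.21 in tumor, a difference of 3.40 (SE 0.13, adjusted p = 2.15e-10). Psap and Ctss held the largest shares of the list's summed n in tumor, at 14.1% each, against 9.43% and 5.68% in spleen. Asah1, the gene of acid ceramidase, rose by 3.26 (SE 0.10), from 4.41 ± 0.20 (SD, n = 6) to 7.67 ± 0.12 (SD, n = 5).

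NPC2 and NPC1 pass cholesterol out of the lysosome. Npc2, which encodes the soluble partner, rose by 2.39 (SE 0.06), whereas Npc1, which encodes the membrane partner, rose by 1.34 (SE 0.10). Smpd1 (acid sphingomyelinase) rose by 1.25 (SE 0.09), Ppt1 (a thioesterase that removes palmitate from proteins) by 1.07 (SE 0.07) and Lipa (acid lipase) by 1.04 (SE 0.08). The 5 genes were close in spread, with SDs between 0.06 and 0.24 over both tissues. Smpd1 and Tpp1 lie on chromosome 7 with 186421 bases between them, and both rose.

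The 8 membrane proteins covered the widest range, from -0.16 to 7.19, with 7 rising. Cd63, a tetraspanin of late endosomes and exosomes, rose more than any other of the 39 genes and ranked 15 among all genes tested. It lies at chr10:128900989-128912822. Its spleen values were 1.58, 2.89 and 1.11 in WT and 1.10, 2.19 and 1.08 in KO, and its tumor values were 8.56, 9.32, 8.87, 8.56 and 8.93. Spleen WT replicate 2 was the highest spleen library and was still 5.67 below the lowest tumor library. The difference was 7.19 (SE 0.31, adjusted p = 4.09e-10). A pseudogene, Cd63-ps, shares 13.4% of its 31-base words and has no values here.

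Cd68, the sialomucin used as a macrophage marker, lay between 3.68 and 4.41 in spleen (median 3.96) and at 8.60, 8.82, 8.89, 8.42 and 8.85 in tumor, a difference of 4.73 (SE 0.13, adjusted p = 1.74e-11). Lamp2 and Lamp1 encode the heavily glycosylated proteins that line the membrane. Lamp2 rose by 3.46 (SE 0.09) and Lamp1 by 3.0 (SE 0.10), the latter from a spleen range of 5.69 to 6.0 (median 5.89) to 8.57, 9.04, 8.99, 8.67 and 8.99 in tumor. These 3 genes separated the tissues by 4.01, 3.14 and 2.57 at their nearest libraries.

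Laptm4a and Laptm5 are related transmembrane proteins, and Laptm5 is a gene of blood cells known to lower antigen receptor levels in lymphocytes. Laptm4a rose by 1.99 (SE 0.09). Laptm5 was already high in spleen, at 9.43 to 9.73 (median 9.54), and read 10.30, 10.36, 10.20, 10.22 and 10.21 in tumor, a difference of 0.71 (SE 0.07, adjusted p = 5.35e-07). It alone held 35.8% of the summed n of the 39 genes in spleen but 8.37% in tumor. Per kilobase, if n was not already divided by length, it had the highest level of the list in spleen, at 288 ± 20.2 (SD, n = 6). In tumor it was then the fourth by level, at 471 ± 23.6 (SD, n = 5). The next genes there, Ctsd (451 ± 70.1) and Cd63 (441 ± 100), differed from it by less than their own SD. The rise of Laptm5 was not called with equal library totals (0.08, adjusted p = 0.456) or after quantile normalization (0.05, adjusted p = 0.565).

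Scarb2, which encodes the lysosomal membrane protein LIMP-2, rose by 0.90 (SE 0.08). Mcoln1 encodes TRPML1, a cation channel that releases lysosomal calcium. It ran from 4.69 to 5.15 in spleen (median 4.81) and was 4.50, 4.96, 4.85, 4.56 and 4.53 in tumor. The ranges overlap, and the difference was -0.16, with a 95% interval from -0.39 to 0.07 (adjusted p = 0.171).

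Both proton pump subunits rose. Atp6v0c, which encodes the ring subunit of the membrane sector, rose by 2.85 (SE 0.09), from a spleen range of 6.14 to 6.37 (median 6.24) to 8.88, 9.30, 9.24, 8.92 and 9.17 in tumor. Atp6v1a, which encodes the catalytic subunit, rose by 2.47 (SE 0.10). The tissues did not overlap in either gene. Atp6v0c shares 11.9% of its 31-base words with a pseudogene, Atp6v0c-ps2, which has no values here.

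Grn encodes progranulin, a secreted glycoprotein that is cut into granulins in the lysosome. It lies at chr11:102430315-102437048. It ran from 4.41 to 5.20 in spleen (median 4.82) and stood at 9.11, 9.40, 9.40, 9.04 and 9.50 in tumor, a difference of 4.45 (SE 0.15, adjusted p = 5.52e-11). No spleen library came within 3.83 of a tumor library.

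Tfeb was the member called lower in tumor. Its spleen values were 4.47, 4.32 and 4.09 in WT and 3.97, 4.11 and 3.78 in KO, and its tumor values were 3.75, 3.88 and 3.85 in WT and 4.07 and 3.60 in KO. The ranges overlap. The difference was -0.29 (SE 0.12, adjusted p = 0.0441), and an exact two-sided permutation test gave p = 0.052. The call was lost when any of 8 libraries was left out singly (spleen WT replicate 1, 2 or 3, spleen KO replicate 2, tumor WT replicate 1, 2 or 3, or tumor KO replicate 2), with adjusted p from 0.0569 to 0.11. In the 36 genes without overlap the same permutation test gave 0.0043, the smallest p that its 462 splits allow.

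With equal library totals, 34 of the 39 genes were called higher and 3 (Mcoln1 at -0.77, Sgsh at -0.64 and Tfeb at -0.88) lower, against 23.6% and 56.3% of all genes. The list's median was then 1.86, against -0.44 over all genes. After median centring 36 were higher and 3 lower, where 4831 of all 13897 genes were called higher and 6219 lower. After quantile normalization 35 were higher and 3 lower, where 4626 of all 13897 genes were called higher and 6358 lower. The differences of Mcoln1, Sgsh and Tfeb were below 0 under all 4 scalings, and the scaling decided whether Mcoln1 and Sgsh passed the test.

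**Figure D2:**
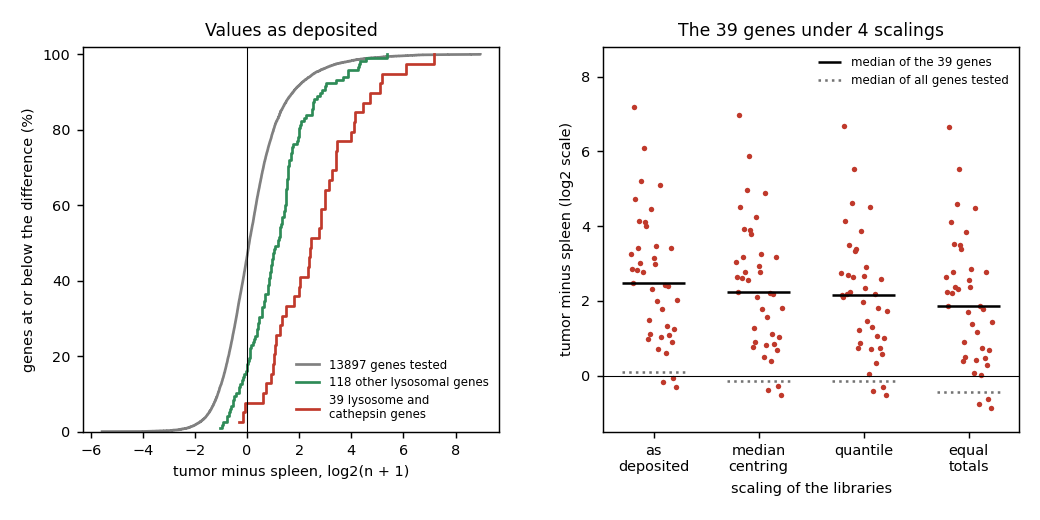
Left, share of genes (%) at or below each tumor-minus-spleen difference in log2(n + 1) for all 13897 genes (grey), 118 other lysosomal genes (green) and the 39 genes (red). Right, the 39 differences (dots) under 4 scalings of the libraries, with their median (solid line, 2.47 as deposited and 1.86 with equal totals) and the median of all genes (dotted line, 0.08 and -0.44).

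The tumor libraries also held high levels of genes of other cell types. Of 19 myeloid markers, 19 were higher in tumor, with a median difference of 5.0, and their summed level was between 8.03 and 9.15 in spleen and between 13.63 and 14.18 in tumor on the log2 scale. None of the 19 was at 0 in any library, and none had a mean below 0.5 in spleen. Lyz2, the lysozyme gene of macrophages and neutrophils, went from 4.75 ± 1.18 (SD, n = 6) to 12.35 ± 0.30 (SD, n = 5), and C1qa, a complement gene of macrophages, from 5.10 ± 0.56 to 10.33 ± 0.19. Csf1r, the receptor on which macrophages depend, was 3.12 higher, Adgre1 4.02, Apoe 5.13 and Itgam (CD11b) 6.43.

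Of 6 fibroblast markers tested, 5 were higher, with a median difference of 5.27, and their summed level was between 1.84 and 2.18 in spleen and between 8.95 and 10.02 in tumor. Dcn, Lum and Pdgfra have no values here. Col3a1, a collagen gene, rose by 8.57, from 0.27 ± 0.09 to 8.84 ± 0.52 (SD, n = 6 and 5). The spleen means of Col3a1, Pdgfrb and Postn were below 0.5. Of 6 dendritic cell markers 4 were higher (summed level 3.24 to 4.30 in spleen and 5.78 to 6.31 in tumor). Of 9 markers of CD8 T and NK cells 5 were higher and 1 lower (5.47 to 6.45 and 7.05 to 8.82), with Cd8a 3.99 higher. Of 7 B cell markers 1 was higher and 5 were lower (3.91 to 5.95 and 3.08 to 4.43), Cd79a among the latter at -1.15. Neutrophil markers numbered 2 (1 higher, 1 lower) and endothelial markers 4 (2 and 2). Erythroid and platelet markers numbered 8 (1 and 7) and tumor epithelial markers 3 (1 and 1). In this order, their summed levels were 3.64 to 3.89, 6.21 to 6.47, 7.20 to 10.06 and 3.34 to 4.02 in spleen. In tumor they were 3.78 to 4.08, 4.71 to 5.07, 8.08 to 9.29 and 4.22 to 4.97. The erythroid and platelet sum in tumor was mostly Pf4, the 1 marker of that list called higher. Pf4 went from 2.35 ± 0.32 to 8.69 ± 0.63 (SD, n = 6 and 5), while the other 7 were lower. Of 9 T cell markers 0 were higher and 7 lower (summed level 10.82 to 10.93 in spleen and 9.91 to 10.66 in tumor), and of 6 Treg markers 2 were higher and 3 lower. Beside these lists, 43.1% of all genes tested were called higher and 35.9% lower. With equal library totals, where 23.6% of all genes were called higher and 56.3% lower, all 9 T cell markers were lower. Of the Treg markers 1 was higher and 4 were lower, while the myeloid and fibroblast counts were as before. The dendritic cell markers then had 2 higher and 1 lower, the B cell markers 0 higher and 6 lower, and the tumor epithelial markers 1 higher and 2 lower. A sort purity was not found in the methods. In bulk samples a different share of cells of a type and a different amount of RNA per cell cannot be told apart, and the part of these cells in the rise of the 39 genes was not tested.

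Within a tissue, the libraries with low levels of the 39 genes can be named. Among tumor libraries, WT replicate 1 was the lowest in 22 of the 39 genes and KO replicate 1 in 13, while WT replicate 2 was the highest in 19. Their summed levels were 13.65, 13.69 and 14.00. The summed myeloid level was also lowest in WT replicate 1 (13.63) and KO replicate 1 (13.80) and highest in WT replicate 2 (14.18). This order was not particular to the myeloid markers. The summed fibroblast level was lowest in KO replicate 1 (8.95) and WT replicate 1 (9.28) and highest in WT replicate 2 (10.02). The summed dendritic cell level, in contrast, was lowest in WT replicate 2 (5.78). The summed T cell level had the reverse order in these 3 libraries, at 10.66 in WT replicate 1, 10.52 in KO replicate 1 and 10.01 in WT replicate 2. It was lowest in KO replicate 2 (9.91). The summed Treg level was highest in KO replicate 1 (10.35), then WT replicate 1 (10.17), and lowest in WT replicate 2 (9.64). Among spleen libraries, WT replicate 1 and KO replicate 2 were the highest for the 39 genes (11.19 and 11.12, the others between 10.92 and 10.99) and for the myeloid markers (9.15 and 9.08, the others between 8.03 and 8.48). Spleen KO replicate 2 was also the highest spleen library for B cell (5.95), dendritic cell (4.30) and CD8 T and NK cell markers (6.45). Spleen WT replicate 1 was the highest for erythroid and platelet markers (10.06). Without both of these spleen libraries 36 of the 39 genes were called, all higher, with a median of 2.46. Of all 13897 genes, 5715 were then called higher and 4768 lower.

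**Figure D3:**
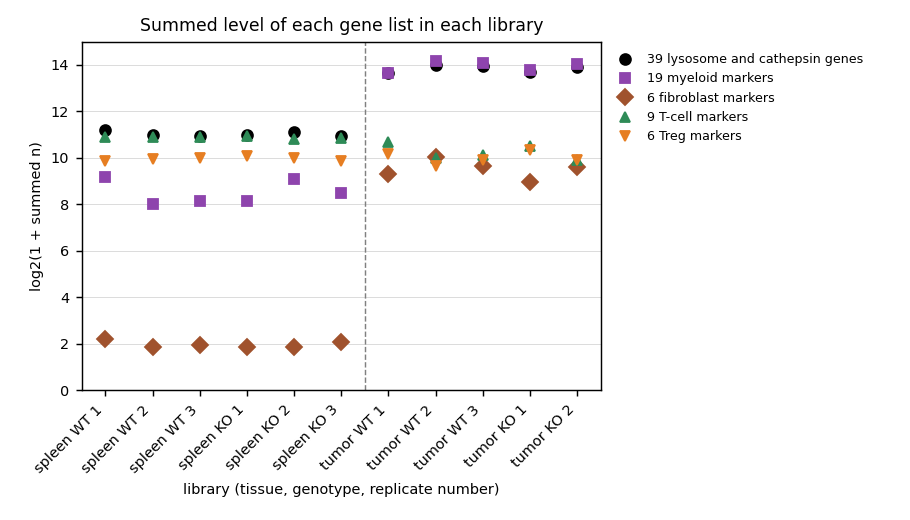
Summed n of each gene list, as log2(1 + sum), in 11 libraries (x axis), with the 39 genes as black circles, myeloid markers as purple squares, fibroblast markers as brown diamonds, T cell markers as green triangles pointing up and Treg markers as orange triangles pointing down. The 39 genes sit between 10.92 and 11.19 in spleen and between 13.65 and 14.00 in tumor, and the myeloid markers between 8.03 and 9.15 and between 13.63 and 14.18.

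The rise of the 39 genes was seen in both genotypes. In WT mice 37 were called, 36 higher and 1 lower, where 39.2% of all genes were called higher and 31.3% lower (70.5% in either direction). In KO mice 36 were called, all higher, where 36.2% of all genes were called higher and 29.5% lower (65.7% in either direction). Within each genotype the lowest tumor library lay above the highest spleen library in 36 genes, against 40.8% of all genes in WT and 42.0% in KO. Cd63 rose by 7.06 (SE 0.43) in WT and by 7.29 (SE 0.48) in KO, Ctsl by 6.02 (SE 0.21) and 6.14 (SE 0.23), and Grn by 4.45 (SE 0.22) and 4.44 (SE 0.24).

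The interaction of tissue and genotype, which asks whether the tissue difference depended on CD177 genotype, was not called for any of the 39 genes by limma, nor for any of the 13897 genes (0.0%). At an unadjusted p below 0.05 the count was 0 of the 39 and 383 of all genes. The interaction estimates ran from -0.40 (Ctsk) to 0.52 (Gla), and the lowest adjusted p was 0.9997. The median 95% interval reached 0.47 to each side, and for 35 of the 39 genes the interval lay within 1 of 0. For Gla, Ctsk, Cd63 and Ctsh it did not, with bounds as far as -1.95 for Ctsk and 1.67 for Cd63, so that differences of that size could not be detected or set aside there. Tfeb was -0.47 (SE 0.15, adjusted p = 0.0164) in WT and -0.12 (SE 0.17, adjusted p = 0.554) in KO, and the difference between these was itself not called (0.35, SE 0.22).

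**Figure D4:**
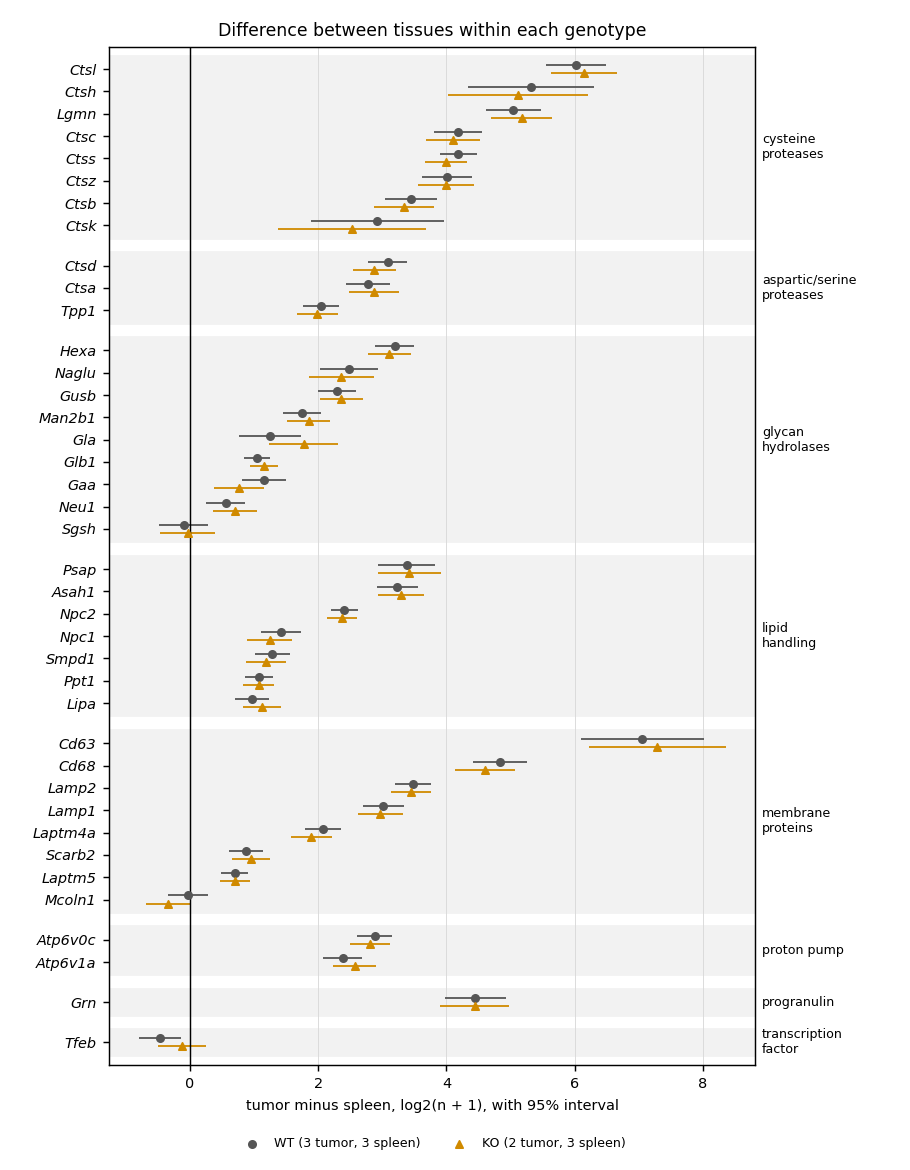
Tumor-minus-spleen difference in log2(n + 1) of each gene with its 95% interval, in WT (grey circles) and KO (amber triangles), with the 39 genes grouped by role. The intervals of WT and KO overlap in each row, and 36 genes lie above 0 in both genotypes.

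Between genotypes within a tissue, no member passed the test. In spleen 0 of 39 genes and 0 of all 13897 genes (0.0%) were called by limma, and at an unadjusted p below 0.05 the counts were 1 (Tfeb, -0.34) and 281. In tumor 0 of 39 genes and 1 of all genes (0.0072%) were called, and the unadjusted counts were 0 and 634. The spleen differences (KO minus WT) ran from -0.40 (Cd63) to 0.44 (Ctsh), and the tumor differences from -0.53 (Ctsk) to 0.24 (Ctsh). The intervals lay within 1 of 0 for 36 of the 39 genes in each tissue, the exceptions being Ctsh, Cd63 and Ctsk in both. Their median half-width was 0.31 in spleen and 0.35 in tumor.

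**Figure D5:**
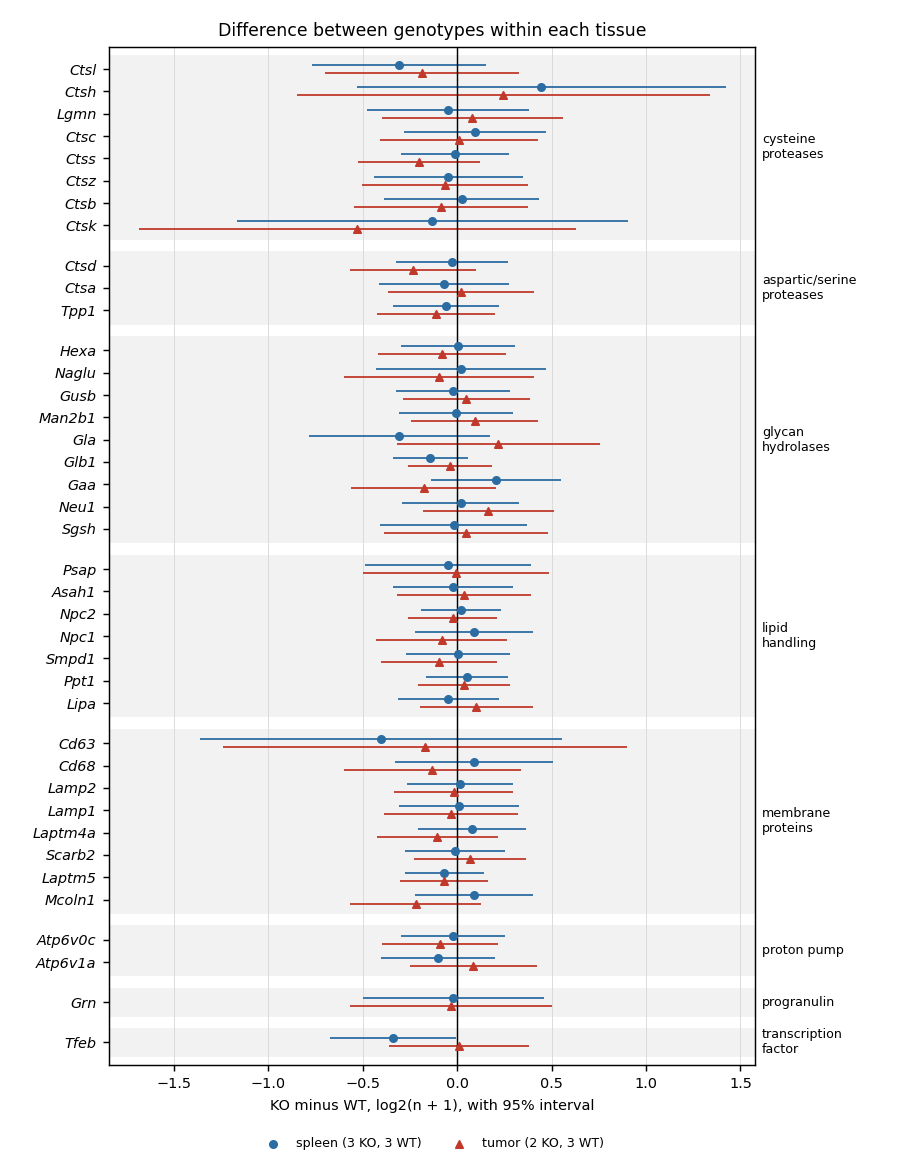
KO-minus-WT difference in log2(n + 1) of each gene with its 95% interval, in spleen (blue circles, 3 KO and 3 WT libraries) and tumor (red triangles, 2 KO and 3 WT). The estimates lie between -0.53 and 0.44 on both sides of 0, and the widest intervals are those of Ctsh, Ctsk and Cd63.

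The other genes of the lysosomal system rose in number but by less. Of 118 such genes tested, 90 were higher in tumor, 13 lower and 15 not called, with a median difference of 1.19. Of all genes tested, 43.1% were called higher and 35.9% lower. With equal library totals 72 of the 118 were higher and 31 lower (median 0.61), against 23.6% and 56.3% of all genes. Of 30 other hydrolases 28 were higher and 1 lower, with a median of 1.60. Scpep1, a serine carboxypeptidase, rose most (4.56, SE 0.16). Acp5, the tartrate-resistant acid phosphatase, was the gene that fell (-0.71, adjusted p = 4.18e-04). Of 16 further pump subunits 15 were higher and 1 was not called, with a median of 1.55, and Atp6v0d2, a subunit known from osteoclasts and macrophages, rose most, by 3.42 (SE 0.22).

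The 4 other cathepsins did not move as a group. Ctsf, a cysteine protease, rose by 1.34 (SE 0.16), while Ctse, an aspartic protease outside the lysosome proper, fell by 0.93 (SE 0.15, adjusted p = 9.18e-05). Ctsw, a cathepsin of cytotoxic lymphocytes, was 4.88 ± 0.26 (SD, n = 6) in spleen against 5.32 ± 0.66 (SD, n = 5) in tumor, which did not pass the test (adjusted p = 0.123). Of 6 genes of protease inhibitors (cystatins and serpins) 5 were higher, with a median of 2.50. Of all genes tested, 43.1% were called higher and 35.9% lower. With equal library totals 4 of the 6 were higher and 1 lower, against 23.6% and 56.3% of all genes. Cst3 (cystatin C) rose by 4.34 (SE 0.17), Cstb (stefin B) by 4.25 (SE 0.12) and Cst7 (cystatin F) by 0.69 (SE 0.13), the last not called with equal library totals (0.07, adjusted p = 0.589).

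Membrane proteins and sorting factors were more mixed, beside 43.1% of all genes called higher and 35.9% lower. Of 22 other membrane proteins 13 were higher and 4 lower (median 0.75), from Slc15a3, a peptide and histidine transporter, at 5.38 (SE 0.17) to Abca2, a lipid transporter, at -0.66 (SE 0.09). Of 22 genes of sorting to the lysosome 16 were higher and 3 lower (median 0.51), with Rab7, the small GTPase of late endosomes, at 1.72 and the adaptor Gga3 at -0.78. The 2 mannose 6-phosphate receptors that deliver hydrolases differed, with M6pr up by 1.51 (SE 0.07) and Igf2r at 0.02 (SE 0.11, adjusted p = 0.901). Gnptab, which makes the mannose 6-phosphate tag, rose by 0.99 (SE 0.10). Both counts moved with the scaling. Under equal library totals 10 membrane proteins were higher and 9 lower, and 8 sorting genes were higher and 8 lower (median -0.10). The shares over all genes were then 23.6% higher and 56.3% lower.

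Among 18 genes of transcription and mTORC1, 12 were higher and 4 lower, with a median of 0.96, against 43.1% and 35.9% of all genes. The 3 relatives of Tfeb in the same family rose. Tfec went from 0.65 ± 0.17 (SD, n = 6) to 4.51 ± 0.47 (SD, n = 5), Mitf from 1.05 ± 0.13 to 3.84 ± 0.19 and Tfe3 from 3.55 ± 0.14 to 4.98 ± 0.22. Their differences were 3.86, 2.79 and 1.44, beside -0.29 for Tfeb. Rragb, a Rag GTPase, had the largest fall of this group, at -1.04 (SE 0.13, adjusted p = 9.92e-06).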

How the data were processed

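RNA of sorted Tregs gave 11 libraries, and the labels assigned each to a tissue and a genotype. Per the labels and methods, the authors used kallisto with the mm10 build to estimate counts from single-end reads, aggregated these by gene symbol in sleuth 0.30.0, and deposited the result as log2(n + 1). The annotation release, the kallisto version and any scaling of n are not stated in the sources used here. No count model was run, since the table holds log2 values, and they were not normalized further. A gene was tested when its mean over the libraries was at least 0.5, which kept 13897 of 14604 genes. The model was limma 3.58.1 in R 4.3.3 (lmFit, then eBayes with a trend on the mean). Genotypes were pooled for tumor against spleen, and 4 group means gave the contrasts within a tissue or genotype and the interaction. A gene was called when its p, adjusted by Benjamini and Hochberg over all genes tested, was below 0.05, and each adjusted p in the text comes from limma. For single genes, exact two-sided permutation tests used scipy 1.17.1 in Python 3.11.15. The fit was tested on simulated data. Positions, transcript lengths and shared words of 31 bases came from GENCODE M21. Levels of n per kilobase used the median length of a gene's coding transcripts and assume that n was not already divided by length.

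All 39 genes are named. From each list of other lysosomal genes, those with the largest called rise and fall are named, with 12 genes fixed by symbol, of which 2 are not reported here, and 12 markers. Members and lists were chosen with earlier results of these data known. Alternatives changed the scaling, pseudocount, filter, variance model, correction, covariate, replicate block and libraries. The fit without spleen WT replicate 1 and spleen KO replicate 2 was added after seeing the data. Libraries of both tissues with the same replicate number did not deviate together (correlations of -0.13 to 0.04). With so few libraries per group, these correlations cannot tell whether the numbers mark the same mouse.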

Additional observations from a re-analysis of the deposited data

Results flagged for a closer look

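Mcoln1 was the outlying value among the 39 genes. In spleen KO replicate 1 its log2(n + 1) was 5.15, while the other 5 spleen libraries lay between 4.69 and 4.83, and the gap made up 0.698 of the range of the 6 libraries. In 78 groups of 5 or 6 libraries that were examined in this way, 1 value stood out, where chance gives about 1 in 20 groups, or 3.9.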

How the results depend on the processing

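Of the 39 genes, 32 kept their direction and their side of the threshold between tumor and spleen under all 24 alternatives, and the others were Gaa, Laptm5, Mcoln1, Neu1, Scarb2, Sgsh and Tfeb. The number called stayed between 35 (Bonferroni) and 39 (median centring), except 32 when a difference of at least 1 was also asked. Over all 13897 genes the counts called in these 3 settings were 5051, 11050 and 4556. The median difference, 2.47, was 1.86 with equal library totals, 2.16 with quantile normalization, 2.23 with a pseudocount of 5 and 2.25 with centred medians, and it ranged from 2.42 to 2.55 with each library left out in turn (36 or 37 genes called). With each library left out in turn, 10614 to 10978 of all 13897 genes were called. Sgsh ranged from -0.16 without tumor KO replicate 2 to 0.00019 without tumor KO replicate 1, and was not called in any of these. Among all genes the called ones were 54.5% higher as deposited, but 43.7% after median centring, 42.1% after quantile normalization and 29.6% with equal totals. With the replicate number as a block the called members numbered 37 between tissues, 37 in WT and 36 in KO. They numbered 0 in the interaction and both genotype comparisons. Over all 13897 genes the counts were 10512, 9241 and 7752, and 0 in the interaction and both genotype comparisons. Whether the numbers pair the libraries is not known. How n relates to the stated read depth is not known, so the precision was judged from the spread between libraries. Gaa (0.98) and Scarb2 (0.90) lost their call only where a difference of at least 1 was also asked, a size they do not reach. Where a call was lost otherwise, the cause was not tested.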
